A study of Drosophila melanogaster with 3 samples.

Results

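The Rab GTPase genes were examined in AKHR+ neurons of the adult fly brain, the cells that carry the receptor of adipokinetic hormone (AKH), a hunger hormone. Members were the genes whose symbol is Rab or RabX followed only by a number, together with Rab9D, Rab9Db, Rab9E, Rab9Fa and Rab9Fb. This gave 28 of the 11922 genes in the data. Regulators of Rabs whose names begin with Rab, such as Rab3GAP1, were not counted as members. The annotation holds 33 symbols of this kind, and the other 5 (Rab1, Rab18, Rab19, Rab32 and RabX1) are not analysed here.

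The study asked how a high-fat diet sensitizes AKHR+ neurons, and sequenced RNA of these neurons to learn which lipoprotein receptors they express. There was 1 group of 3 libraries and no second condition. Per the labels, all carried nSyb-AD-AKHR-BD-GAL4 with UAS-mCD8gfp, a split driver active only where the pan-neuronal nSyb and the AKHR promoters are both on, and came from flies of 5 days raised on normal food. GFP-marked cells were drawn from dissected brains, and full-length cDNA was amplified before sequencing.

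The 3 libraries are called cells 1, 2 and 3 after their labels, although the labels also speak of pooled single cells. Fewer cells of a type and less RNA per cell cannot be told apart in such libraries. No source says whether the libraries came from separate flies, so the spread between them may be partly technical.

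Rab proteins are small GTPases that give the membranes of a cell their identity. Each one cycles between a GTP-bound form, which sits on a particular organelle and recruits motors, tethers and fusion factors, and a GDP-bound form, which is extracted to the cytosol. In neurons they route newly made membrane proteins out of the Golgi, sort internalized receptors toward recycling or degradation, bring autophagosomes to lysosomes, and mark synaptic vesicles.

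Expression was given as FPKM, the fragments of a gene scaled by its exon length and by the mapped total, so that levels of different genes are on 1 per-length scale. Summed FPKM lay between 492248 and 539862, and the depth estimated from the low values between 6270000 and 6620000 fragments. Detection was set at an FPKM of 1 or more, and 4389, 6046 and 5626 genes were detected in cells 1, 2 and 3. The 4 neuronal markers analysed were detected in every cell, with elav in cell 1 lowest at 4.36 and Syx1A in cell 1 highest at 675. So were the 4 glial and 6 photoreceptor markers, whose summed FPKM ranged from 1120 to 1174 and from 2753 to 8010, against 584 to 813 for the neuronal markers. Of the 6 fat body markers 4 were detected in every cell, with sums from 20173 to 32892, while Fbp1 and Fbp2 were listed at 0. What cells other than AKHR+ neurons contribute to the Rab values was not tested.

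Most Rab genes had transcripts in each cell. All 3 cells detected 17 of the 28 genes (31.1% of all genes were), while 3 were found in 2 cells, 1 in 1 cell and 7 in none, so that 21 were detected somewhere (57.7% of all genes). By cell, 18 Rab genes were detected in cell 1 (36.8% of all genes), 20 in cell 2 (50.7%) and 20 in cell 3 (47.2%). The median over the 28 genes was an FPKM of 37.4, 30.4 and 48.8 in cells 1, 2 and 3, against medians over all genes of 0, 1.28 and 0.135. The latter are low because many genes were listed at 0. Over values above 0 alone, the medians were 61.1, 48.4 and 87.1 for the Rab genes and 31.0, 21.7 and 23.4 for all genes. Together the Rab genes took 0.316%, 0.315% and 0.358% of the summed FPKM, while making up 0.235% of the genes. Their summed FPKM was 1556, 1628 and 1931 (mean 1705 ± 199, SD, n = 3).

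**Figure D1:**
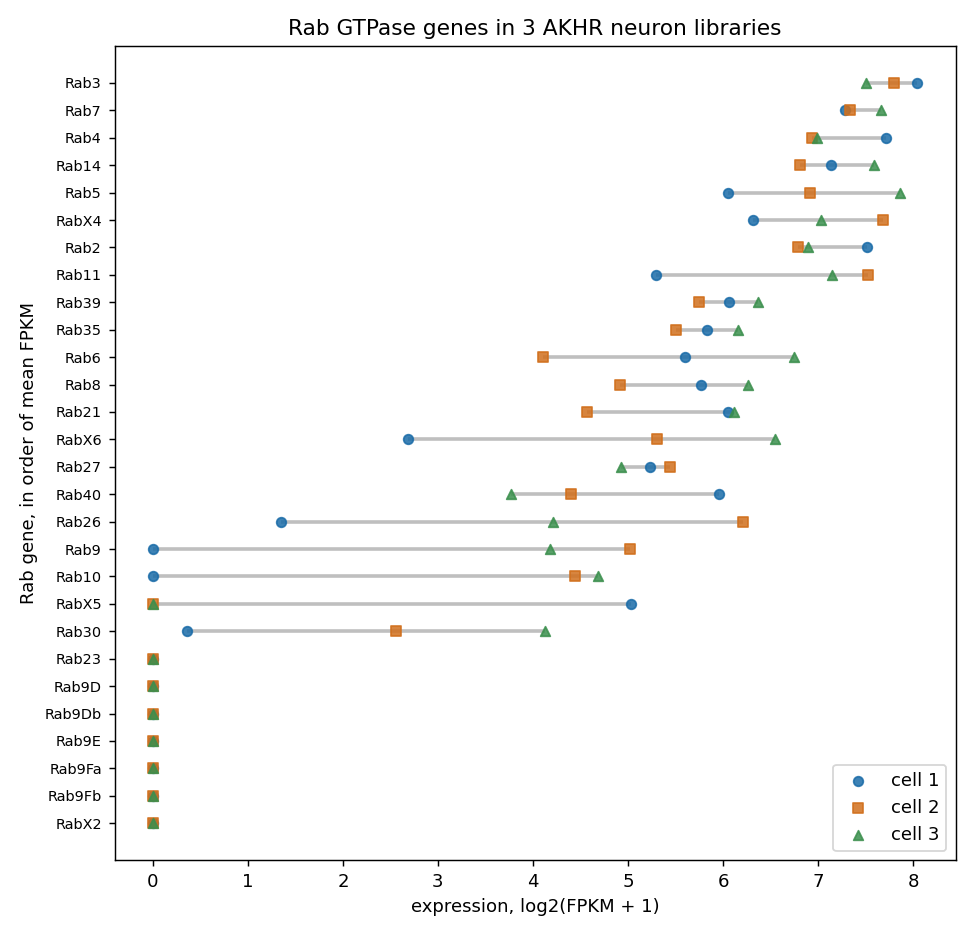
Expression of the 28 Rab genes as log2(FPKM + 1) on the horizontal axis, with 1 marker per cell (3 cells), a grey line for the range, and genes ordered from top to bottom by mean FPKM. Rab3, with a mean FPKM of 222, heads the order, Rab9, Rab10 and Rab30 lie at or near 0 in cell 1, and the 7 genes at the bottom are listed at 0 in all 3 cells.

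The 5 genes with the highest mean FPKM (Rab3, Rab7, Rab4, Rab14 and Rab5) held 53.5%, 45.2% and 48.2% of the summed Rab FPKM in cells 1, 2 and 3. They were picked on these same values, so a large share was built in, and no like share was computed for other genes. An FPKM of at least 100 in all 3 cells was found for 5 Rab genes, namely Rab2, Rab3, Rab4, Rab7 and Rab14 (4.43% of all genes passed this level). In the order of means, the ranges over cells of neighbouring genes overlapped in each of the 20 steps, so no gene was set apart from the next by the spread between cells. By another measure, the order within each cell, 135 of the 210 pairs of detected Rab genes (64.3%) stood in the same order in all 3 cells. These pairs include the neighbours, and no such share was computed over all genes.

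Among the Rabs of regulated secretion, Rab3 was the most abundant Rab gene by mean level. Rab3 sits on synaptic vesicles and, in the fly, helps to place release machinery at active zones. The gene (FBgn0005586) lies on chromosome arm 2R from 10721335 to 10729203 on the minus strand of the BDGP6 assembly. Cells 1, 2 and 3 had an FPKM of 263, 222 and 181 (mean 222 ± 40.9, SD, n = 3), ranks 345, 346 and 497 of the 11922 genes. It was the highest Rab gene in cells 1 and 2 and the fourth in cell 3, and it exceeded 17 of the 20 other detected Rab genes in every cell.

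Rab27, which in mammals docks secretory granules at the plasma membrane, was far lower but as even. The gene (FBgn0025382, chromosome X from 1473884 to 1476974, minus strand) had an FPKM of 36.6, 42.4 and 29.3 (mean 36.1 ± 6.54). Rab26, which in mammals links synaptic vesicles to autophagy, had an FPKM of 1.56, 73.1 and 17.5. The value in cell 1 rested on about 24.8 fragments (95% Poisson interval 16.2 to 36.9) and that in cell 2 on about 1104 (1040 to 1171). The intervals do not overlap, and they cover counting error only. Annotated exons of Rab26 share 200 of 4353 bases with asRNA:CR46068 on the other strand, whose reads cannot be told apart where counting ignores strand.

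Rab8 and Rab10 act between the Golgi and the plasma membrane, and in the fly Rab10 also directs secretion of basement membrane proteins. Rab8 had an FPKM of 53.3, 29.3 and 75.6 (mean 52.7 ± 23.2). Rab10 was listed at 0 in cell 1 and at 20.8 and 24.8 in cells 2 and 3, resting there on about 305 and 377 fragments. At the estimated depth, 3 fragments of Rab10 in cell 1 would have given an FPKM of 0.194. Of the 21 detected Rab genes, 2 (Rab10 and Rab9) were listed at 0 in cell 1, against 29.3% of all detected genes.

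The early and recycling endosome Rabs were all detected in each cell (5 of 5). Rab5 governs entry into and fusion of early endosomes. Its FPKM (FBgn0014010, chromosome 2L from 2359142 to 2365273, minus strand) was 65.4, 119.9 and 232 (mean 139 ± 84.7). It was first among the Rab genes in cell 3, sixth in cell 2 and ninth in cell 1, the widest change of place among the 5 most abundant. Rab4, which returns receptors quickly from early endosomes to the surface, had an FPKM of 209, 122 and 126 (mean 152 ± 49.6). Rab11, the Rab of the slower recycling endosome, had an FPKM of 38.2, 183 and 140.4 (mean 121 ± 74.4). Cell 1 was thus highest for Rab4 and lowest for Rab11.

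Rab35 and Rab21 complete this group. Rab35, a recycling Rab that in mammals also organizes actin, had an FPKM of 56.1, 44.3 and 70.3 (mean 56.9 ± 13.0). Rab21, found on early endosomes in mammals, had 65.5, 22.6 and 68.3 (mean 52.2 ± 25.6), with cell 2 below both others. The 5 genes together held 27.9%, 30.2% and 33.0% of the summed Rab FPKM, the largest share of any role in every cell. Such a share grows with the number of genes analysed. The role of late endosomes, phagosomes and lysosomes, with 4 genes analysed, had the higher median FPKM in cells 1 and 3 (102.9 and 136.5 against 65.4 and 125.7). In cell 2 its median was lower (81.8 against 119.9).

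Of the Rabs of late endosomes, phagosomes and lysosomes, Rab7 is the one that brings late endosomes and autophagosomes to fusion with lysosomes. Its FPKM (FBgn0015795, chromosome 3R from 23993008 to 23995452, plus strand) was 154, 161 and 201 (mean 172 ± 25.3). Rab7 was within the 4 highest Rab genes in every cell, and between cells it had the smallest ratio of the 21 detected Rab genes, 1.30 from highest to lowest. Rab14, which in fly blood cells acts in the maturation of phagosomes, had an FPKM of 139.98, 111 and 191 (mean 147 ± 40.8). Its exons share 6 of 1857 bases with lncRNA:CR44851 on the other strand.

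Rab39, a Rab of the endosomal and lysosomal system in mammals, had an FPKM of 65.9, 52.6 and 81.6 (mean 66.7 ± 14.5), again with the cells close together. Rab9, which in mammals returns cargo from late endosomes to the Golgi, was listed at 0 in cell 1 and at 31.5 and 17.1 in cells 2 and 3. The FPKM that 3 fragments would give for Rab9 in cell 1 was 0.283. The 4 genes of this role held 23.2%, 21.9% and 25.4% of the summed Rab FPKM.

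Of the 3 genes of ER and Golgi traffic analysed, 2 were detected in all cells. Rab2, which acts at the Golgi and in delivery to lysosomes, had an FPKM of 181, 109.7 and 118 (mean 136 ± 39.3). Rab6, a Rab of the Golgi stack, had 47.5, 16.2 and 106 (mean 56.6 ± 45.6), so that cells 2 and 3 differed 6.56-fold, and without cell 3 the mean was 31.8. Rab30, a Golgi Rab in mammals, had 0.286, 4.89 and 16.5, lowest in cell 1 where it rested on about 3.45 fragments (95% Poisson interval 0.619 to 8.77). As Rab1 is not analysed, the share of this role, 14.7%, 8.03% and 12.4% of the summed Rab FPKM, lacks one of its main genes.

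**Figure D2:**
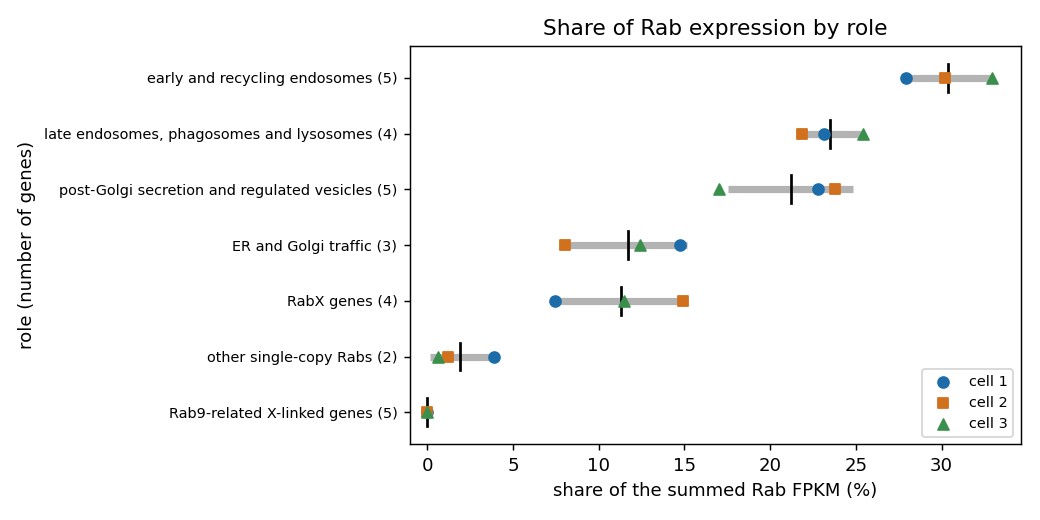
Share of the summed FPKM of the 28 Rab genes held by each role, in percent on the horizontal axis, with 1 marker per cell, a black tick for the mean and a grey bar for ± 1 SD (3 cells). The 5 early and recycling endosome genes lie between 27.9% and 33.0%, and the 5 Rab9-related X-linked genes are at 0 in all 3 cells.

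The RabX genes are Rabs that were named without an assigned vertebrate counterpart. RabX4 (FBgn0051118, chromosome 3R from 24826665 to 24828409, minus strand) was among the abundant Rabs, with an FPKM of 78.7, 204 and 129 (mean 137 ± 62.9). It was second among the Rab genes in cell 2 and sixth in cells 1 and 3. RabX4 shares 131 of its 1416 exon bases with Kaz on the same strand, and Kaz had an FPKM of 61.3, 27.6 and 72.6, lowest in the cell where RabX4 was highest. Reads in the shared stretch may count for either gene.

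RabX6 had an FPKM of 5.45, 38.7 and 92.6, a 17.0-fold range with cell 1 lowest at about 46.4 fragments (95% Poisson interval 33.7 to 61.4). Of its 1286 exon bases, 466 overlap Vti1a on the other strand, a gene not analysed here. RabX5 showed the opposite pattern and was listed at 31.8 in cell 1, on about 194 fragments, and at 0 in cells 2 and 3. It was the 1 detected Rab gene at 0 in cell 2 (10.3% of detected genes) and the 1 at 0 in cell 3 (14.2%). No other Rab gene was seen in cell 1 alone. RabX2 was listed at 0 throughout.

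Of the remaining single-copy Rabs, Rab40 carries a SOCS box and works with a ubiquitin ligase. Its FPKM was 61.1, 20.1 and 12.6 (mean 31.3 ± 26.1), highest in cell 1, without which the mean was 16.3. Rab23, which in the fly takes part in planar cell polarity, was listed at 0 in all cells, where 3 fragments would have given 0.200, 0.211 and 0.203.

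All 3 cells listed 7 Rab genes at 0 (39.5% of all genes were), and 6 of these shared a position and structure. Apart from Rab23, on chromosome 3R with 3 exons, they were Rab9D, Rab9Db, Rab9E, Rab9Fa, Rab9Fb and RabX2, and these 6 lay within 535 kb of chromosome X, from 10417429 to 10952486. Each had 1 annotated exon and a transcript of 791 to 897 bases. All but RabX2 entered the members by name and were grouped as related X-linked genes, so their shared features are not an independent result. Of the 21 detected Rab genes, 1 had a single exon (Rab6), and their mean transcript lengths ran from 922 to 2941 bases. The other 6 X-linked Rab genes, Rab10, Rab21, Rab27, Rab35, Rab39 and Rab40, were all detected in at least 2 cells. Of all protein-coding genes with a single exon in every transcript, 60.9% were listed at 0 in all 3 cells.

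For these 6 genes, 3 fragments would have given an FPKM between 0.505 and 0.605 in a cell. How the counting treated reads that match several copies is not given in the sources used here, so their 0 values are listed values and not shown to be absence.

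The spread between cells was then set beside that of all genes, as the log2 ratio of highest to lowest cell with 1 added to each FPKM. Over the 21 detected Rab genes the median ratio was 1.55, against 2.54 over the 6883 genes of the series that any cell detected. Where 2 or more cells had an FPKM of at least 10, the medians were 1.36 over 19 Rab genes and 1.94 over 4113 genes. At FPKM of 100 or more in all cells they were 0.72 over 5 Rab genes and 0.91 over 528 genes, a smaller gap.

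A log2 ratio under 1 was found for 8 of 21 Rab genes (14.7% of detected genes), for 8 of 19 at FPKM 10 or more in 2 cells (22.5%), and for 5 of 5 at 100 or more in all cells (55.1%). They were Rab7 (0.38), Rab27 (0.52), Rab3 (0.54), Rab39 (0.62), Rab35 (0.65), Rab2 (0.72), Rab4 (0.78) and Rab14 (0.78). A log2 ratio of 3 or more was found for 6 Rab genes (42.5% of detected genes). Cell 3 held the highest value for 11 of the 21 Rab genes (33.5% of detected genes), cell 1 for 5 (27.3%) and cell 2 for 5 (39.2%). The lowest value lay in cell 1 for 9 Rab genes (41.4%), in cell 2 for 8 (22.3%) and in cell 3 for 3 (20.4%), leaving out RabX5 with its tie.

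The 6 genes with the widest ratios were RabX5, Rab9, Rab26, Rab10, RabX6 and Rab30, and in all but RabX5 the lowest value was that of cell 1. Cell 1 alone was lowest for 41.4% of all detected genes, and no such share was computed for genes of wide ratio. It also had the fewest genes detected. Of the neuronal markers, elav (4.36 in cell 1 against 54.6 and 50.1 in cells 2 and 3) and Syt1 (106 against 285 and 174) were lowest in cell 1. Syx1A was highest in cell 1 (675 against 296 and 335), and brp was lowest in cell 3 (27.2, 44.5 and 24.6). The part of any of these in the Rab values was not tested.

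**Figure D3:**
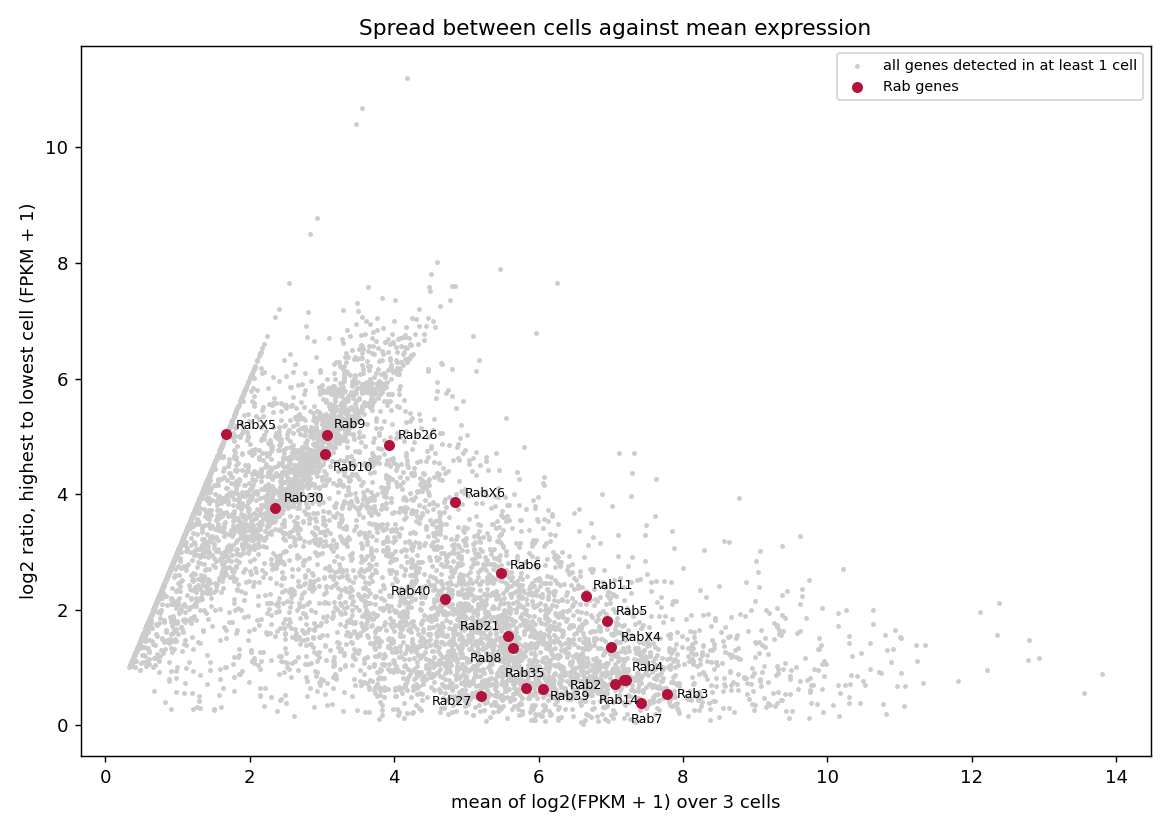
Log2 ratio of the highest to the lowest cell (FPKM + 1) on the vertical axis against the mean of log2(FPKM + 1) over 3 cells on the horizontal axis, with grey points for the 6883 genes that any cell detected and red points for the 21 detected Rab genes. Rab7, at 0.38, has the smallest ratio of the Rab genes, and Rab9, Rab10, Rab26, Rab30, RabX5 and RabX6 lie at 3 or more.

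The cells ranked the Rab genes in a similar way. Over all 28 genes, Spearman's correlation of cell 1 with cell 2 was 0.804 and with cell 3 was 0.829, and that of cells 2 and 3 was 0.916. Over all 11922 genes the same pairs had 0.741, 0.758 and 0.815. Without the 7 genes at 0 in every cell, the 21 detected Rab genes gave 0.641, 0.685 and 0.805, against 0.559, 0.595 and 0.651 over the 6883 detected genes. These are correlations across genes, which are not independent replicates, and they carry no p-value.

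Rab genes of neighbouring steps were compared within cells, as differences of log2(FPKM + 1). The signs of the 3 differences were flipped in an exact permutation test (two-sided), whose smallest possible p is 0.25, so that no pair could pass 0.05. Rab27 was below Rab3 by a nearly constant amount, -2.81, -2.36 and -2.59 in cells 1, 2 and 3 (mean -2.59 ± 0.23, SD, n = 3, exact permutation p = 0.25, Benjamini-Hochberg adjusted over 4 pairs 0.5). The FPKM ranges of Rab27 and Rab3 did not overlap.

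Rab10 was below Rab8 in all 3 cells as well (mean -2.60 ± 2.79, n = 3, exact permutation p = 0.25, adjusted 0.5). This difference turned on cell 1, where Rab10 was listed at 0, and without cell 1 it was -1.02.

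The endosomal pairs had no fixed order. Rab7 exceeded Rab5 in cells 1 and 2 and was below it in cell 3 (mean 0.48 ± 0.72, n = 3, exact permutation p = 0.5, adjusted 0.667). Rab11 differed from Rab4 by -2.42 in cell 1 and was above it by 0.59 and 0.16 in cells 2 and 3 (mean -0.56 ± 1.63, n = 3, exact permutation p = 1, adjusted 1). Without cell 1 the mean difference of Rab11 and Rab4 turned to 0.37. A Rab2 and Rab1 pair had also been planned and could not be formed without Rab1.

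**Figure D4:**
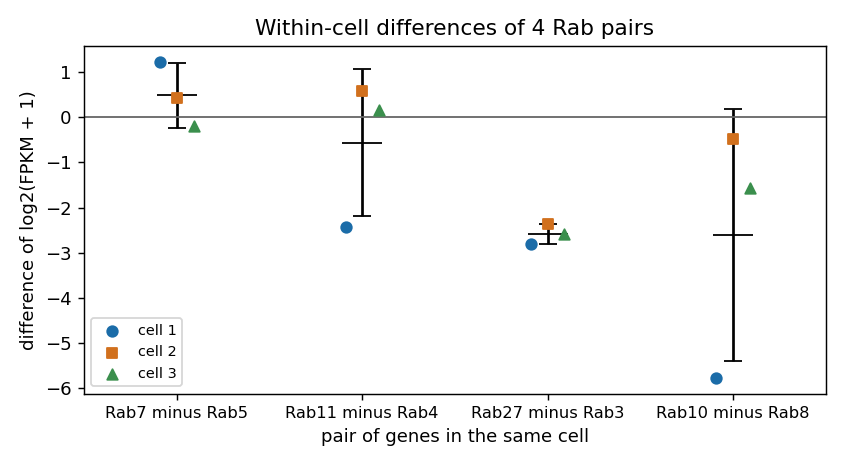
Within-cell difference of log2(FPKM + 1) on the vertical axis for 4 pairs of Rab genes, with 1 marker per cell, a horizontal tick for the mean and error bars of ± 1 SD (3 cells). Rab27 minus Rab3 lies between -2.81 and -2.36 in all cells, while Rab7 minus Rab5 and Rab11 minus Rab4 lie on both sides of 0.

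Genes that act on Rabs were examined with the same measures, from lists of 61 symbols, some of them alternative spellings, of which 28 genes were analysed. Of these, 16 were detected in all 3 cells (31.1% of all genes were) and 0 were listed at 0 in all 3 (39.5%). The lists were chosen with earlier results of these data known, so these counts are descriptive and show no trait of such genes. Whether each listed gene acts on a Rab in the fly was not tested. The shared machinery of the Rab cycle was led by Gdi, which extracts GDP-bound Rabs from membranes. Its FPKM was 249, 277 and 279 (mean 269 ± 16.8, SD, n = 3), above every Rab gene in cells 2 and 3 and second to Rab3 in cell 1. Rep, which presents new Rabs for lipid attachment, had 88.4, 33.9 and 58.2. The subunits of the enzyme that attaches the lipid were uneven, with RabGGTb at 6.78, 69.8 and 55.1 and RabGGTa at 0, 0.169 and 11.8, both lowest in cell 1.

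Exchange factors load Rabs with GTP. Of the 14 symbols listed, 4 genes were analysed and 1 was detected in every cell, and their summed FPKM was 12.5, 16.1 and 14.5. In order of mean log2 value they were ca, an exchange factor of Rab32 (9.74, 1.69 and 10.5), spri (2.38, 4.96 and 0.736), Sbf, which acts on Rab21 (0.387, 6.20 and 1.94), and Crag (0, 3.24 and 1.24).

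GTPase-activating proteins switch Rabs off. Of the 8 genes analysed that were listed as such, 4 were detected in every cell. The highest by mean log2 value were wkd at 18.2, 30.9 and 82.3, TBC1d7 at 31.6, 21.3 and 40.2, and RN-tre at 15.6, 27.0 and 30.3, followed by Tbc1d8-9 at 1.04, 40.4 and 13.6. The fifth, Rab3GAP1, part of the enzyme that acts on Rab3, had an FPKM of 0.107 in cell 1 and of 25.3 and 22.5 in cells 2 and 3. Rab3 itself was highest in cell 1, at 263 against 222 and 181, and a link between Rab3GAP1 and Rab3 was not tested. Of the others named, wkd, RN-tre and Tbc1d8-9 were also lowest in cell 1, and TBC1d7 was not.

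Of the 12 genes analysed that were listed as effectors and tethers, 8 were detected in every cell. The tether subunit lt, which with Rab7 brings membranes to the lysosome, had 96.1, 53.8 and 18.2, and another subunit of that tether, car, had 7.16, 32.5 and 20.7. Plekhm1, which in mammals binds Rab7, had 106, 20.9 and 6.36. The Rab11 binding proteins nuf (37.6, 49.6 and 29.3) and Rip11 (14.7, 27.8 and 33.2) were detected in every cell. Of the Rab3 partners, named after their values were seen, Rim had 10.7, 22.2 and 10.3 and Rph had 2.93, 12.7 and 33.6, each below Rab3 in every cell.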

How the data were processed

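Per the paper, AKHR+ cells were picked individually, while the labels also speak of pooled single cells. Their RNA was sequenced as amplified full-length cDNA. The authors trimmed the reads, mapped them to the fly genome and deposited FPKM per gene. HISAT is named in the submitters' processing notes, while its version, the quantifier, the build and the annotation are not given in the sources used here. FPKM depends on the mapped total, so very abundant transcripts lower all other values of a library. No molecular identifiers are described, so PCR copies count as fragments. The header of the file of cell 3 carries another sample number than its label, and the label was kept.

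The 12180 lines of a file held 11922 gene IDs, and values of the 117 repeated IDs were averaged. Each of the 28 members stood on 1 line. Symbols (found for 11794 IDs), coordinates and exon lengths came from the Ensembl release 115 annotation of BDGP6, which may differ from that of the authors. Values were analysed as log2(FPKM + 1), a scale that understates differences of low genes.

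Depth was estimated from genes with 1 transcript, as the total between 2000000 and 10000000 that put most values of up to 10 fragments within 0.1 of a whole number. It gave 6620000, 6270000 and 6510000 fragments for cells 1, 2 and 3, with 63.9%, 44.0% and 54.0% of 202, 168 and 189 low values so placed, where a step fixed beforehand would place 20%. Multiples of these totals lay above the range searched and were not evaluated. Fragments, floors (3 fragments) and exact Poisson intervals are therefore approximate and cover counting error only.

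The members and lists were chosen with earlier results of these data known. All members were accounted for. Of each list of genes that act on Rabs, up to 5 with the highest mean log2 value were named. Rim and Rph were named in addition, after their values were seen, as partners of Rab3. Counts of members stand beside those over all genes, and 4 pairs were tested by exact sign-flip permutation with Benjamini-Hochberg adjustment. Alternatives were a pseudocount of 0.1, other thresholds, rescaling each library to a sum of 1000000, and leaving out each library. Only the depth search was tested on simulated counts, and the sign-flip test was checked on worked examples (Python 3.11.15, numpy 2.4.6, pandas 2.3.3, scipy 1.17.1).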

Additional observations from a re-analysis of the deposited data

How the results depend on the processing

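With 3 cells no sign-flip test could pass 0.05, so keeping its side of the threshold shows no stability. The difference of Rab11 and Rab4 turned to 0.37 without replicate 1 and ranged from -1.13 to 0.37 as each replicate was left out. The 17 Rab genes detected in all cells became 18 at FPKM of at least 0.1, 15 at 10 or more, and 20 without replicate 1 (17 to 20 over the 3 omissions). The genes that act on Rabs detected in every cell numbered 9 at FPKM of at least 10, an alternative chosen after seeing the data.

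The median log2 value of the Rab genes, 5.25, went to 5.90 over the 21 detected members and to 6.19 after rescaling, and ranged from 5.12 to 5.39 as each replicate was left out. The median log2 ratio between cells ranged from 0.65 to 1.36 with a replicate left out, lower by construction with 2 cells. The mean Spearman correlation, 0.850, was 0.710 over the detected members and ranged from 0.804 to 0.916 over the pairs. Rescaling took the summed Rab FPKM to 3295 and moved 16 of 21 single-gene means, raising all genes of a cell alike. With 3 values, omitting 1 cannot move a mean by its SD, so that limit tests nothing for the gene means, the summed FPKM and the median. By a change of over 1.5 times, chosen after seeing the data, 7 of the 21 gene means moved. Without replicate 1 the mean FPKM of Rab40 went to 16.3 and that of RabX5 to 0, without replicate 2 Rab26 went to 9.53 and Rab9 to 8.53, and without replicate 3 Rab6 went to 31.8, RabX6 to 22.1 and Rab30 to 2.59. The omission of replicate 3 took the summed FPKM lowest, to 1592, and that of replicate 1 highest, to 1779. No paired comparison of conditions was possible because there is a single group. Floors of genes listed at 0 rest on the estimated depth, and for the X-linked copies they bound nothing if reads matching several copies were dropped.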
